A study of Schizosaccharomyces japonicus with 6 samples.

Results

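Tj10 is a family of retrotransposons of the fission yeast *Schizosaccharomyces japonicus*, and its 36 annotated loci were taken as every locus whose identifier is Tj10 followed directly by a hyphen or a low line, among 5152 loci in the table of expression values. They comprise 1 full-length element (Tj10-1), 23 partial elements and 12 solo long terminal repeats (LTRs). Polyadenylated RNA was sequenced from dcr1Δ* and wild-type cells, in 3 libraries of each strain, all grown in rich medium at 32 °C. The dcr1Δ* strain carries dcr1-dis::natMX6, a disruption that removes only the start of the coding sequence of Dicer, together with mpe1-R77W, a missense change in a subunit of the cleavage and polyadenylation factor. Both strains also carry h-, mat-P2028, ura4-D3 and ade6(sj)-domE. The dcr1Δ* strain is a single rare survivor isolate, so its libraries repeat 1 strain and not the mutation. The study asked what Dicer does to transcripts of such elements. The values described here are the average level of each locus over all 6 libraries of both strains, as deposited. They do not separate the strains, and the difference between dcr1Δ* and wild-type cells was not analysed here.

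Tj10 belongs to the Ty3/Gypsy class of LTR retrotransposons, in the lineage related to Ty3. Such an element is transcribed from its upstream LTR through the gag and pol genes, which encode the proteins of the particle and the protease, reverse transcriptase, RNase H and integrase, to its downstream LTR, and the RNA is copied back into DNA. Recombination between the flanking LTRs removes the interior and leaves a solo LTR, while deletions and later insertions leave partial elements. In this yeast, retrotransposons cluster at putative centromeres and telomeres, carry heterochromatic histone marks and give rise to small RNAs made by Dicer. The partial elements and solo LTRs described below are annotated as less than a whole element, and Tj10-1 is the only Tj10 locus annotated as full-length. The paper describes the assembly of these regions as incomplete. Whether some partial loci are pieces of longer copies was not tested.

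Levels are given as CPM, read counts scaled to the library's total, or as its log2, logCPM. Reads with several matches in the genome were counted in fractions, so near-identical copies share reads and the loci are not independent of each other. There is 1 value per locus, so no spread between libraries is given, no test was made and the depth of each library is unknown. The lowest logCPM in the table was −3.99, or 0.0628 CPM. It was shared by 15 loci, of which 12 are loci of Tj1 to Tj10, and was taken as the level of loci without reads, since edgeR adds a small count to every locus before the logarithm.

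In the average over both strains, few reads were counted on Tj10 loci, and these were concentrated on a few of them. The 36 loci had a median logCPM of −2.48, and their levels ran from −3.99 for Tj10_partial_retrotransposon-8.2 to 2.57 for Tj10-1. All but Tj10_partial_retrotransposon-8.2 stood above the level of loci without reads. Counting that locus, 14 of the 36 were less than 1 log2 unit above that level. In Tj3 and Tj5, the families nearest in number of loci, 12 of 35 and 10 of 30 loci were. Only 4 of the 36 Tj10 loci exceeded 1 CPM, against 15 of 35 in Tj3 and 9 of 30 in Tj5. The 4 Tj10 loci were Tj10-1, Tj10-type_LTR-5.2, Tj10_partial_retrotransposon-4.1 and Tj10_partial_retrotransposon-1.5. Together they held 58.6% of the 19.5 CPM summed over the family, and the remaining 32 loci held 8.07 CPM. The family total amounted to 0.00194% of all CPM in the table.

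**Figure D1:**
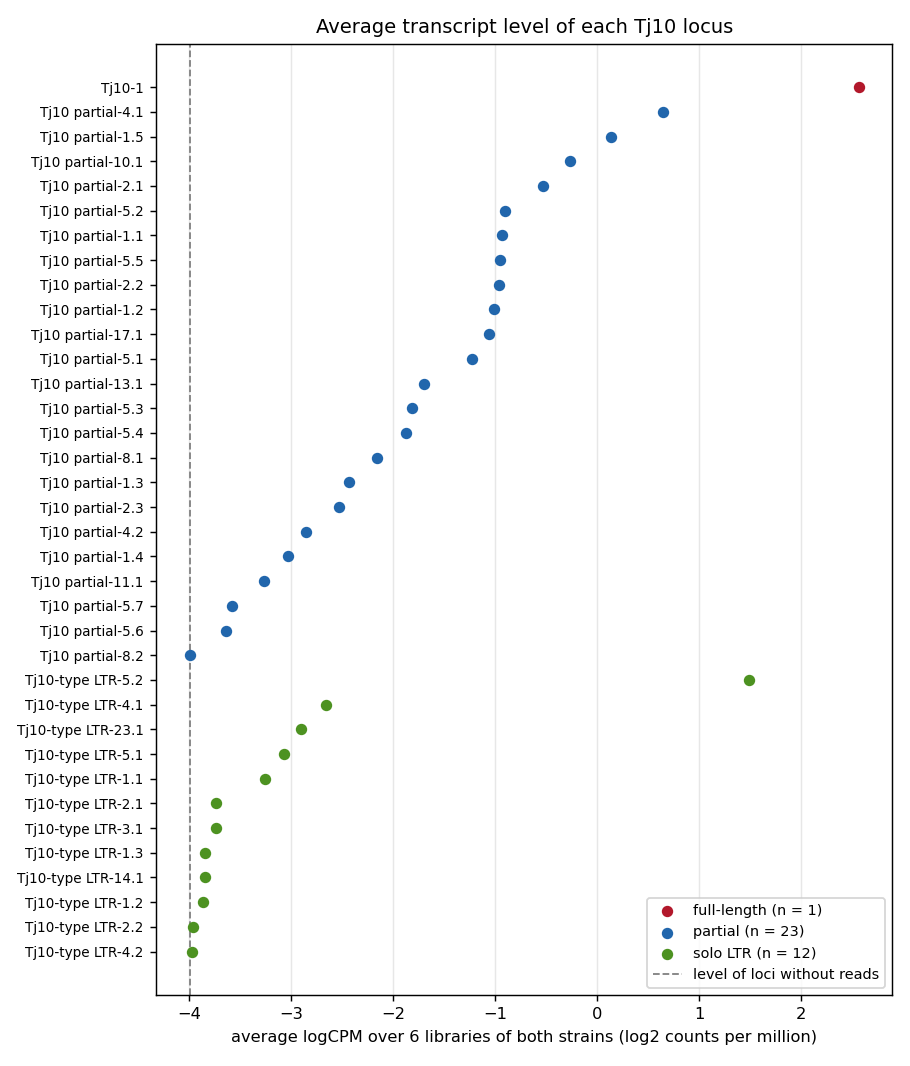
Average logCPM over 6 libraries of both strains for each Tj10 locus, with 1 point per locus, coloured by element type and ordered within it; the dashed line marks the level of loci without reads at −3.99. Tj10-1 stands highest at 2.57, a single solo LTR stands at 1.49, and the other 11 solo LTRs lie between −3.97 and −2.66.

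Tj10-1 lies on the minus strand of supercont5.1 from 8433 to 15449 of the SJ5 assembly and is 7017 bases long. Its average level was 5.94 CPM, 94.5 times the level of loci without reads, and this single locus carried 30.5% of the family total. Among the 13 full-length elements of Tj1 to Tj10 it was the second longest, after Tj4-1 at 9875 bases. The other 11 were between 5030 and 6042 bases long. Its logCPM of 2.57 ranked 5th from the bottom of these 13, next to Tj3-1 at 2.53 and Tj3-2 at 3.19. Per kb of element it had 0.846 CPM, against 22.7 CPM per kb for Tj2-1, the highest of the 13, and 0.0120 CPM per kb for Tj4-1, the lowest. With no replicate values, neighbours in this order cannot be separated from each other.

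Partial elements spanned a wide range of lengths and levels. The 23 partial loci were 268 to 4889 bases long and had a median logCPM of −1.70, with a lowest value of −3.99 and a highest of 0.65. The highest, Tj10_partial_retrotransposon-4.1, lies on supercont5.4 from 83891 to 88136 and had 1.56 CPM over its 4246 bases. The next, Tj10_partial_retrotransposon-1.5, lies on supercont5.1 from 15694 to 16213 and had 1.10 CPM over only 520 bases. It is on the same strand as Tj10-1 and lies 244 bases from it, with a partial Tj9 element at 0.0804 CPM lying between them. The longest partial locus, Tj10_partial_retrotransposon-10.1 on supercont5.10 from 332 to 5220, had 0.835 CPM, or 0.171 CPM per kb. The longest partial locus thus had a lower level per kb than either of the others.

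Level nevertheless followed length among the partial loci. The 9 loci of at least 1000 bases had a median logCPM of −0.93, with values from −1.82 to 0.65. The 14 shorter loci had a median of −2.48, with values from −3.99 to 0.14, so the ranges overlapped. Across all 23 partial loci, logCPM and length had a Spearman's rho of 0.74, and logCPM and the log2 of length a Pearson's r of 0.72. These correlations are over loci of the same libraries that share split reads, and they describe the loci without a test. Once the level of loci without reads was subtracted and the rest divided by length, rho with length was 0.096 and r with its log2 was −0.13. On that scale the longer loci had a median of 0.330 CPM per kb and the shorter loci 0.203 CPM per kb.

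**Figure D2:**
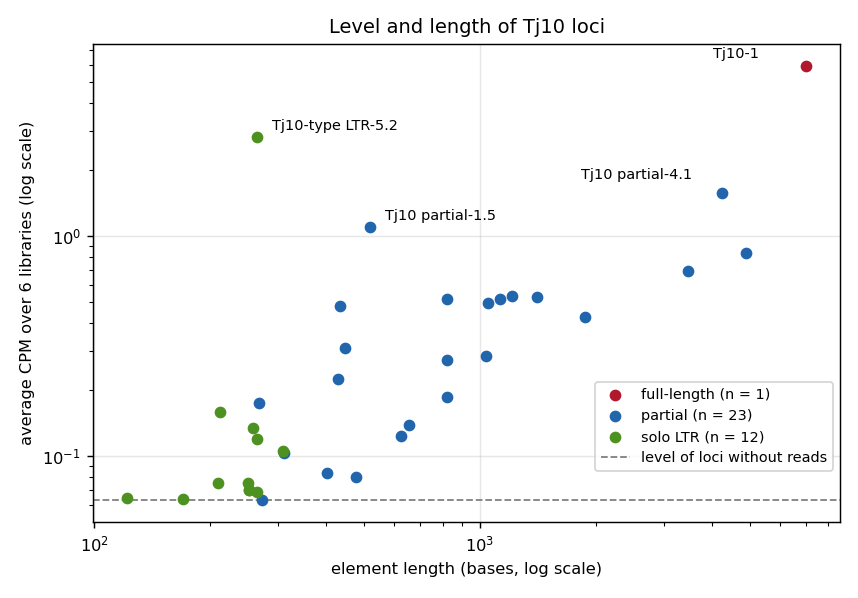
Average CPM over 6 libraries against element length in bases for the 36 Tj10 loci, both on log scales, with 1 point per locus and the level of loci without reads (0.0628 CPM) as a dashed line. Partial loci lie higher with length, while Tj10-type_LTR-5.2, at 2.80 CPM over 265 bases, stands apart from the other solo LTRs.

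Per kb, with the level of loci without reads subtracted, Tj10-1 had 0.837 CPM per kb and only 2 of the 23 partial loci exceeded it. These were Tj10_partial_retrotransposon-1.5 at 1.99 CPM per kb and Tj10_partial_retrotransposon-17.1 at 0.962 CPM per kb. Tj10_partial_retrotransposon-17.1 lies on supercont5.17 from 2100 to 2533 and overlaps a partial Tj8 element by 1 base, which itself had 0.504 CPM. The median of the partial loci was 0.256 CPM per kb on the same scale. Because the reads of Tj10-1 and of similar partial copies were split between them, these levels per locus depend on how alike the copies are, which was not analysed here.

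Solo LTRs were close to the level of loci without reads, with a single exception. Their median logCPM was −3.73, and 11 of the 12 lay between −3.97 and −2.66, that is between 0.0639 and 0.158 CPM. The exception, Tj10-type_LTR-5.2 on the plus strand of supercont5.5 from 54564 to 54828, had a logCPM of 1.49, or 2.80 CPM. This was 17.7 times the next solo LTR, Tj10-type_LTR-4.1, and 73.6% of the CPM of all 12. Per kb and with the level of loci without reads subtracted, it had 10.3 CPM per kb, 12.3 times the value of Tj10-1. It ends 358 bases before a partial Tj2 element on the other strand, Tj2_partial_retrotransposon-5.1, which had 6.89 CPM, and begins 2 bases after a partial Tj14 element that has no row in the table. The part of that Tj2 element in the level of this LTR was not tested.

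Solo LTRs of equal length had different levels. Tj10-type_LTR-5.2, Tj10-type_LTR-5.1 and Tj10-type_LTR-1.2 are each 265 bases long, and their levels were 2.80, 0.119 and 0.0688 CPM. Tj10-type_LTR-5.1 lies on the same contig as Tj10-type_LTR-5.2 but on the other strand. Partial loci had a median logCPM 2.04 above that of solo LTRs, −1.70 against −3.73. This order turned round when CPM was simply divided by length, at a difference of −0.14 on the log2 scale, since the level of loci without reads weighs more on short loci. With that level subtracted the medians were 0.256 CPM per kb for partial loci and 0.0542 CPM per kb for solo LTRs.

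Solo LTRs also held 2 sets of loci with equal values. Both sets were near the level of loci without reads, the first 0.15 and the second 0.26 log2 units above it. Tj10-type_LTR-1.3 on supercont5.1 from 4226143 to 4226394 and Tj10-type_LTR-14.1 on supercont5.14 from 1563 to 1814 are both 252 bases long and both had 0.0698 CPM. Each is followed after 332 bases by a partial Tj3 element of 178 bases on the same strand, and both of those Tj3 loci were at the level of loci without reads. The LTR, the gap and the partial Tj3 element thus have the same lengths on both contigs. Tj10-type_LTR-2.1 and Tj10-type_LTR-3.1 shared the value 0.0752 CPM as well, though they are 250 and 210 bases long and lie on supercont5.2 and supercont5.3.

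Several Tj10 partial loci lay beside each other with a gap of recurring length. Whether such neighbours derive from the same copy was not tested. Neighbouring Tj10 partial elements on the same strand, less than 1000 bases apart and with no other annotated element between them, occurred 6 times and involved 11 of the 23 partial loci. In 5 of the 6 cases the gap was 274 to 276 bases, and in the remaining case it was 226 bases; these 5 were set apart after the gaps were seen. The pieces upstream of the recurring gap were 823 bases long in 3 cases, and 1126 and 1210 bases in the others. The downstream pieces varied between 402 and 3453 bases. Of the 5 cases, 3 lie on supercont5.5, and both strands are represented.

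The 3 upstream pieces of 823 bases had different levels. Tj10_partial_retrotransposon-5.5, on supercont5.5 from 91684 to 92506, had 0.518 CPM. Tj10_partial_retrotransposon-5.4, on the same contig from 84049 to 84871, had 0.274 CPM, and Tj10_partial_retrotransposon-1.3, on supercont5.1 from 4232960 to 4233782, had 0.186 CPM. All 3 stood more than 1 log2 unit above the level of loci without reads.

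Per kb, and with that level subtracted, the upstream piece was higher than its downstream partner in 4 of the 5 cases, and in 4 of all 6. In the case with the gap of 226 bases, the upstream Tj10_partial_retrotransposon-5.6 had 0.0370 CPM per kb and the downstream Tj10_partial_retrotransposon-5.3 had 0.214 CPM per kb. Tj10_partial_retrotransposon-5.5 had 0.553 CPM per kb and the downstream piece, Tj10_partial_retrotransposon-5.1, had 0.194. Tj10_partial_retrotransposon-2.2 had 0.401 CPM per kb and Tj10_partial_retrotransposon-2.1 had 0.183. Tj10_partial_retrotransposon-5.2 had 0.389 CPM per kb and Tj10_partial_retrotransposon-5.6 had 0.0370. The upstream piece was also the higher for Tj10_partial_retrotransposon-5.4, at 0.256 CPM per kb, and Tj10_partial_retrotransposon-5.7, at 0.0512 CPM per kb. The downstream Tj10_partial_retrotransposon-5.6 and Tj10_partial_retrotransposon-5.7 were near the level of loci without reads, at 0.36 and 0.41 log2 units above it. The exception among the 5 was Tj10_partial_retrotransposon-1.3, at 0.149 CPM per kb, whose downstream piece Tj10_partial_retrotransposon-1.2 had 0.414 CPM per kb and ends where the full-length Tj3-1 begins. In logCPM, without regard to length, the upstream piece was higher in 3 of the 5 cases, and in 3 of all 6.

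**Figure D3:**
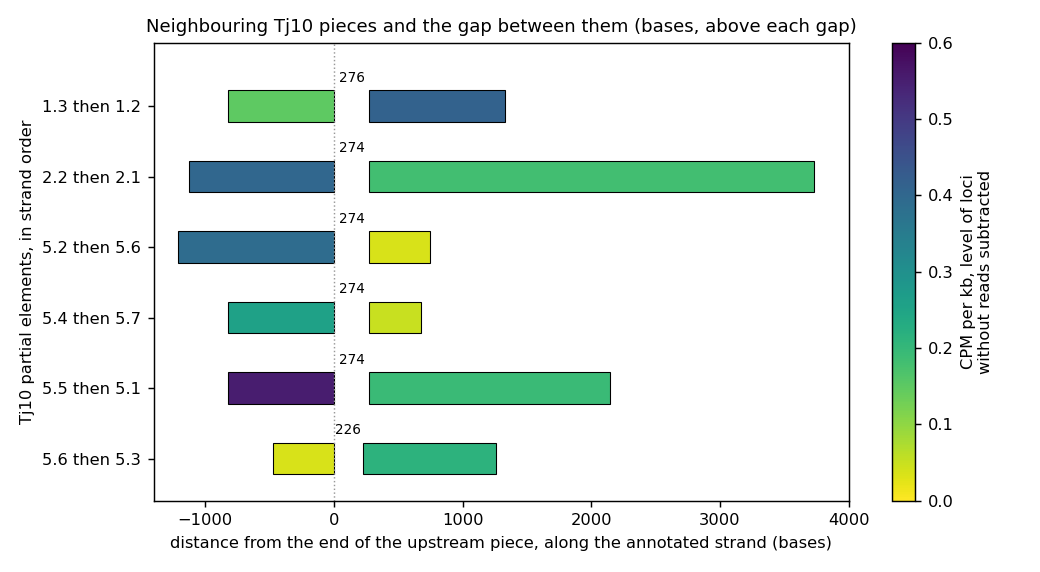
Neighbouring Tj10 partial elements drawn to scale along their annotated strand, aligned at the end of the upstream piece, with the gap in bases printed above it and the colour giving CPM per kb with the level of loci without reads subtracted. In 5 of the 6 cases the gap is 274 to 276 bases, and the upstream piece has the higher CPM per kb in 4 of those 5 and not in the case with 226 bases.

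Tj10_partial_retrotransposon-8.2, the single Tj10 locus at the level of loci without reads, overlaps another Tj10 locus. It lies on supercont5.8 from 441 to 713, and 229 of its 273 bases (83.9%) are also covered by Tj10_partial_retrotransposon-8.1, which runs from 485 to 912 on the same strand and had 0.224 CPM. The paper names counting settings for reads with several matches in the genome, and none for reads that fall in overlapping loci. Whether the overlap bears on the value of Tj10_partial_retrotransposon-8.2 was not tested.

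The 36 loci lie on 12 contigs, 18 on each strand. Supercont5.1 and supercont5.5 held 9 loci each and supercont5.2 held 5, and 15 loci in all lay on supercont5.1, supercont5.2 or supercont5.3. By level, supercont5.1 carried 44.2% of the family's CPM, most of it on Tj10-1, and supercont5.5 carried 26.3%, most of it on Tj10-type_LTR-5.2. The 9 loci of supercont5.5 had a median logCPM of −1.82. Those of supercont5.1 and supercont5.2 had medians of −2.43 and −2.53, in that order. Tj10_partial_retrotransposon-2.1, on supercont5.2 from 1840391 to 1843843, was the highest Tj10 locus of its contig at 0.694 CPM.

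Tj10 loci, like those of the other families, were embedded among other retrotransposons, and fewer of them adjoined another family than in Tj3 or Tj5. Within 10 bases of an element of another family lay 17 of the 36 Tj10 loci (47.2%), against 26 of 35 Tj3 loci (74.3%) and 25 of 30 Tj5 loci (83.3%), the families with the most similar numbers of loci. Across all of Tj1 to Tj9 the share was 60.9% of 230 loci. Within 1000 bases lay 32 of the 36 Tj10 loci, against 33 of 35 Tj3 loci, 28 of 30 Tj5 loci and 198 of the 230 loci of Tj1 to Tj9. The 17 close Tj10 loci had a median logCPM of −2.43 and the 19 others one of −2.53, while for Tj3 these medians were −0.84 and −2.75. The elements next to the 17 belonged to 10 families, with Tj3, Tj9 and Tj15 beside 3 loci each. Tj10-type_LTR-3.1, on supercont5.3 from 3035381 to 3035590, was isolated, since the nearest element of another family lay 2166825 bases away.

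Beside the other families, Tj10 had low average levels for its number of annotated loci. Its loci made up 13.5% of the 266 loci of Tj1 to Tj10 and 12.1% of their summed length, but held 0.297% of their 6547 CPM. Most of that sum lay on Tj7, at 4060 CPM, with 2918 CPM on Tj7_partial_retrotransposon-1.1 and 1034 CPM on Tj7_partial_retrotransposon-28.1. These Tj7 loci thus weigh heavily on the share of Tj10, and that share was not computed without Tj7. The median logCPM of Tj10 was −2.48, against 0.13 for the 230 loci of Tj1 to Tj9, and 167 of those 230 (72.6%) were above the Tj10 median. Per kb the medians were 0.363 CPM per kb for Tj10 and 1.96 CPM per kb for Tj1 to Tj9. With the level of loci without reads subtracted they were 0.204 and 1.80 CPM per kb. By the median logCPM and by both medians per kb, Tj10 was the second lowest of the 10 families, above Tj4. These ranks are of levels averaged over dcr1Δ* and wild-type libraries, and the rank within either strain was not analysed here. By summed CPM it was the third lowest, above Tj4 and Tj1, which have 13 and 9 loci.

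Tj3 and Tj5 were closest to it in number of loci and belong to the same lineage. The median logCPM was −2.48 for Tj10, −0.98 for the 35 Tj3 loci and −1.67 for the 30 Tj5 loci, and the summed CPM was 19.5 for Tj10, 123 for Tj3 and 51.4 for Tj5. Partial loci taken alone were closer, with medians of −1.70 for Tj10, −1.01 for Tj3 and −1.83 for Tj5. Of 23 partial Tj10 loci, 2 exceeded 1 CPM, while 12 of 30 partial Tj3 loci and 5 of 23 partial Tj5 loci did. The highest partial locus reached 1.56 CPM in Tj10, 28.3 CPM in Tj3 and 16.3 CPM in Tj5. In logCPM the median of the partial Tj10 loci thus lay between those of Tj5 and Tj3, while their highest locus lay below the highest of both. Per kb, with the level of loci without reads subtracted, the order differed. The medians of partial loci were then 0.256 CPM per kb for Tj10, 0.382 for Tj5 and 0.524 for Tj3, so that Tj10 lay below both.

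**Figure D4:**
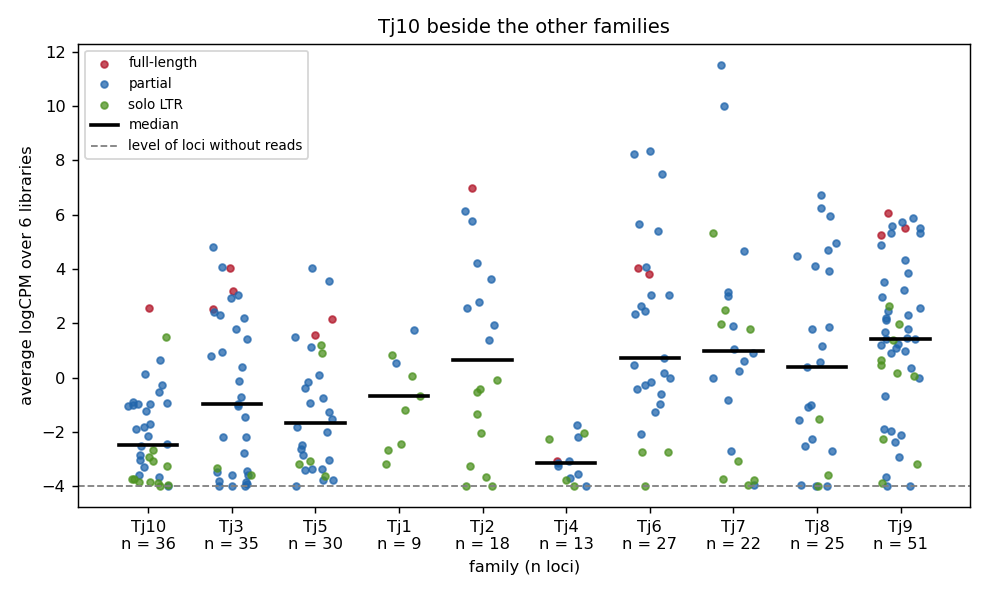
Average logCPM over 6 libraries for each locus of Tj10, of Tj3 and Tj5, and of the other families, with 1 point per locus coloured by element type, a black bar at each family's median and a dashed line at the level of loci without reads. The Tj10 median of −2.48 lies below that of every family drawn other than Tj4, at −3.13.

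Tj10 has 12 solo LTRs, more than any other of the 10 families, and their median logCPM of −3.73 was the lowest, against 0.32 for the 10 solo LTRs of Tj9, the highest. Low medians were shared by the fewer solo LTRs of other families, at −3.58 for Tj8 (3 loci), −3.44 for Tj3 (2 loci) and −3.06 for Tj5 (5 loci). Without solo LTRs the median of Tj10 was 0.46 below that of Tj3 and Tj5 together on the log2 scale, and with them it was 1.21 below. Among partial loci Tj10 had the third lowest median logCPM of the 10 families. Per kb, with the level of loci without reads subtracted, its median for partial loci was the second lowest. Loci of all these families share libraries and split reads, so the differences are descriptions.

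The 4886 other loci of the table, those not named as Tj1 to Tj10, had a median logCPM of 6.03. They were not sorted by whether they overlap or lie inside retrotransposons. Of them, 22 (0.450%) lay below the Tj10 median, and 370 (7.57%) lay below Tj10-1. This comparison is on the scale of logCPM, not per length.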

How the data were processed

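The authors used Trim Galore for trimming, STAR for alignment (assembly SJ5), featureCounts for counting, where a read with several matches adds a fraction to each, and edgeR for comparing strains. The submitters' notes give Trim Galore 0.4.3.1, STAR 2.7.2b, featureCounts 2.0.1 and edgeR 3.34.0. The paper names other versions of featureCounts and edgeR. The low-count filter, normalization and strand setting are not given in the sources used here. The deposited logCPM is a log2 value of CPM averaged over 6 libraries, so no depth per library was derived from it.

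The deposited fold change, F statistic, p-value and FDR of dcr1Δ* against wild-type cells are the authors' own comparison and were not used. Positions came from the study's list of 396 elements, where 5 starts equal 0, so that starts were taken as 0-based; positions printed are 1-based. CPM was 2 to the power logCPM, and CPM per kb divided it by element length. A locus was at the level of loci without reads when within 1e-06 of the lowest logCPM. All 36 loci could be named. Tj3 and Tj5 were chosen for their numbers of loci, and gaps under 1000 bases defined neighbouring pieces. The members and groupings were chosen with earlier results of these data known. The code was tested on simulated elements. Python 3.11.15, numpy 2.4.6, pandas 2.3.3, scipy 1.17.1 and matplotlib 3.10.9 were used.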

Additional observations from a re-analysis of the deposited data

How the results depend on the processing

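With 1 averaged value per locus, no library could be left out, and no paired analysis was possible because no value per library was used. Every summary kept its direction under the alternatives run, except the difference between partial loci and solo LTRs, which was −0.14 per kb (2.27 with loci at the level of loci without reads left out). That level limits what can be seen, since 22 Tj10 loci stood at least 1 log2 unit above it; 23 loci stood above it when solo LTRs were left out.

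Without solo LTRs, the Tj10 median logCPM was −1.46, its sum 15.7 CPM, the share on the highest locus 37.9%, the median 0.351 CPM per kb, the share of Tj1 to Tj10 0.243%, and the difference −2.38 from Tj1 to Tj9 and −0.46 from Tj3 and Tj5. With the level of loci without reads subtracted, the sum was 17.2 CPM, the share on the highest locus 34.1%, the median 0.204 CPM per kb and the share of Tj1 to Tj10 0.264%. With loci at that level left out, the median was −2.43 and the differences −2.82 and −1.42. Taken per kb instead, on the log2 scale and with all loci kept, the differences were −2.43 and −0.85. Leaving out Tj10-1, Tj10-type_LTR-5.2 or both was chosen after seeing the data. The sum and the share of Tj1 to Tj10 were 13.5 CPM and 0.207% without Tj10-1, 16.7 CPM and 0.255% without Tj10-type_LTR-5.2, and 10.7 CPM and 0.164% without both. The median was −2.53 (0.358 CPM per kb) without either one and −2.59 (0.349 CPM per kb) without both.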
